A study of Mus musculus with 10 samples.

Results

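The NF-κB pathway and feedback genes described here are Nfkb1, Nfkb2, Rela, Relb, Nfkbia, Nfkbie, Nfkbiz, Tnfaip3, Ikbkb and Birc3. They were found by a list of symbols, a rule that uses no measured value. The list itself was chosen with earlier results of these data known, so counts of its members are a description. All 10 were found among the 24608 gene symbols of the count table, and 9 of the 10 had enough counts to be tested, as did 7753 genes in all. The exception was Nfkbie. The filter asks for 13.4 CPM in at least 5 libraries, so a gene that is low in control can pass through its Trpm7 cKO libraries alone, and such a gene can hardly come out other than higher. Of the 9 tested members 8 were above this level in all 5 control libraries, and Relb in 2. The study asked what loss of the channel and kinase TRPM7 does to muscle stem cells (MuSCs) after injury. Activated MuSCs were taken from regenerating skeletal muscle 3 days after cardiotoxin (CTX), a snake venom toxin that destroys myofibers while MuSCs survive. Control mice were Trpm7+/+; Pax7CreERT2/+; Rosa26YFP (5 libraries) and Trpm7 cKO mice were Trpm7flox/flox; Pax7CreERT2/+; Rosa26YFP (5 libraries), adults of 7 to 20 weeks on a C57BL6 background with age-matched controls. Tamoxifen was given once a day on 5 days to switch on Cre, which both genotypes carried, so that Pax7-expressing cells recombined Trpm7 only in the floxed mice and carried YFP in both. Cells were sorted as YFP-positive, so a cell of another lineage that recombined or was caught in the sort would also be read. From 3000 sorted cells, 3′ ends of polyadenylated transcripts were counted by CEL-Seq2. A transcript gives about 1 tag whatever its length, so levels are given as CPM (counts scaled to a common library total, with TMM factors) and are not divided by gene length. In these bulk libraries fewer cells of a type and less RNA per cell cannot be told apart.

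NF-κB is a family of dimeric transcription factors that is held in the cytoplasm by inhibitors of the IκB family. Tumour necrosis factor, interleukin-1 and bacterial products act through adaptor and ubiquitin-ligase complexes to switch on the IκB kinase, which marks IκBα for destruction and frees the RelA and p50 subunits (canonical pathway). A slower route through the kinase NIK makes p52 from the Nfkb2 product and releases RelB (non-canonical pathway). Several genes that the freed dimers switch on, among them Nfkbia and Tnfaip3, code for proteins that shut the pathway down again, so their transcripts are widely read as feedback genes. In muscle the pathway is known for the inflammatory response to injury and for atrophy, and RelA activity is known to oppose myogenic differentiation.

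The promoters of 4 members are shown because they hold, or lack, the sequence that NF-κB dimers bind, the κB consensus of 10 letters. RefSeq promoters (GRCm38.p6, 250 bases before to 50 after a start) were given for 6 of the 10 members, with 9 promoters between them. Nfkb1, Relb, Nfkbiz and Ikbkb had no entry. Matches on either strand are in capitals, and each sequence runs 5′ to 3′ along the gene.
Nfkbia promoter, chr12:55492598-55492897, minus strand: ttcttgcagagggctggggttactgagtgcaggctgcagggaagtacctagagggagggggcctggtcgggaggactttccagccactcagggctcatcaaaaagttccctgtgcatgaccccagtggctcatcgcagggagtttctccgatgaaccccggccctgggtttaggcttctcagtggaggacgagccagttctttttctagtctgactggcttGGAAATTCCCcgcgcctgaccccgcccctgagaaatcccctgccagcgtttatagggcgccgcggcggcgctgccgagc
Tnfaip3 promoter, chr10:19015361-19015660, minus strand: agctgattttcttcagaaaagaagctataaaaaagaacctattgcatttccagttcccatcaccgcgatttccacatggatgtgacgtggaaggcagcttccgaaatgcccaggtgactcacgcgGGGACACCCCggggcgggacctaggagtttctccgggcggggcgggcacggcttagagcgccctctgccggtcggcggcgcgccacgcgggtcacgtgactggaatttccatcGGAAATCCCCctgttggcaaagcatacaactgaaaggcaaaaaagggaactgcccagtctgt
Nfkb2 promoter, chr19:46304487-46304786, plus strand: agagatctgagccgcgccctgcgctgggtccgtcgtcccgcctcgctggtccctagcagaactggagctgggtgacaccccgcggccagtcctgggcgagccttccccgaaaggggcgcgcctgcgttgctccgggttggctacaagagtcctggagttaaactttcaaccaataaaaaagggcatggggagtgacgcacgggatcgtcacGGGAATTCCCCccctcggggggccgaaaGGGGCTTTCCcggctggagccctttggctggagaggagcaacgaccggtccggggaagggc
Birc3 promoter, chr9:7873121-7873420, minus strand: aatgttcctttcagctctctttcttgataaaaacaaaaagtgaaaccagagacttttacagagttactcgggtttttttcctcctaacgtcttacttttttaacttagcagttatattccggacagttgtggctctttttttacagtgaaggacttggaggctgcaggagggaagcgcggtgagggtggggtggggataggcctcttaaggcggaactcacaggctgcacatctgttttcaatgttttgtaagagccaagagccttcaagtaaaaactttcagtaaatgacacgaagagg

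The Nfkbia promoter held 1 match, on the reverse strand, its first base at -29 from the start. That of Tnfaip3 held 2, at -125 and at -12. In Nfkb2 the window held 3 matches, at -39 and -38 on opposite strands, which overlap each other and are capitalised as a single run, and at -11. No match was present in the Birc3 window, nor in those of Rela or of the second Tnfaip3 start. Among the promoters not printed, Nfkbie held a match at -106, and the other two Nfkb2 starts held 2 and 1, sharing a site where their windows overlap. A match was found in 6 of the 9 member promoters (66.67%) and in 1480 of 32851 RefSeq mouse promoters of 300 bases (4.51%). By gene this was 4 of 6 members against 5.14% of 27025 genes. A match is a string of letters and not a measured binding site. The printed promoters thus include one with 3 matches, of a gene that was lower in Trpm7 cKO (Nfkb2), and one with none, of a gene that was higher (Birc3).

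Control libraries held 914361 to 1097709 counts (median 995138) and Trpm7 cKO libraries 205986 to 581121 (median 524959), so the low counts of a gene are less certain in Trpm7 cKO. The members' own counts summed to 918 to 1124 per control library and to 525 to 1325 per Trpm7 cKO library. Trpm7 itself had 66 to 84 counts in control and 10 to 55 in Trpm7 cKO libraries, or 64.1 to 86.6 and 44.8 to 97.6 CPM. Where the floxed part lies relative to the 3′ end that is read is not given in the sources used here, so these tags are not taken as a check of the deletion. Defining genes of the labelled cell type were present in every library, with all 14 tested MuSC markers above 13.4 CPM in each. Pax7 averaged 199 CPM in control and 454 in Trpm7 cKO. Of these 14, 7 rose and 4 fell, beside 24.5% higher and 24.2% lower among all tested genes. The study named MyoD and Myog, both on this marker list, among its down-regulated genes. The summed level of the whole list was 3232 to 3646 CPM in control and 2380 to 3944 in Trpm7 cKO (exact permutation test, two-sided, p = 0.921).

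Markers of other cells moved with the genotype and are given here once for the results that follow. Of 43 listed leukocyte markers 22 were tested, and all 22 were higher in Trpm7 cKO, but 16 of them were above the filter's level in fewer than 5 control libraries and so owe their place among the tested genes to Trpm7 cKO. The summed level of the whole list, which uses no filter, was 417 to 678 CPM in control and 1546 to 6873 CPM in Trpm7 cKO (two-sided exact permutation test, p = 0.00794, which is the lower limit for 5 against 5 libraries). The sum was 4022, 1546, 3926, 6873 and 6070 CPM in Trpm7 cKO replicates 1 to 5. Ptprc, which codes for CD45, averaged 7.74 and 54.4 CPM. The T cell gene Cd3e, the B cell gene Cd79a, Nkg7, Klrd1, Flt3 and Siglech were at 0 in every control library and at a few counts at most in Trpm7 cKO libraries. Of 10 endothelial markers the filter let through only Pecam1 and Cdh5, by their Trpm7 cKO libraries, so no count is read from them, and the whole list summed to 6.18 to 64.0 CPM in control and 129.6 to 650.4 CPM in Trpm7 cKO (p = 0.00794, same exact test). Of 6 tested fibroadipogenic markers 5 rose, with sums of 1370 to 2541 and 2531 to 5093 CPM (p = 0.0159, same exact test). The part of these cells in the NF-κB results was not tested, and leukocytes and endothelial cells are known to use this pathway themselves.

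In the Trpm7 cKO libraries, 6 of the 9 tested members rose, 1 fell and 2 did not pass the test. By the same rule, an adjusted p below 0.05 over all 7753 genes in edgeR's quasi-likelihood test, 24.5% of all tested genes were higher and 24.2% were lower. The feedback genes Tnfaip3 and Birc3, the inhibitors Nfkbia and Nfkbiz and the subunits Relb and Rela made up the 6, with increases from 2.28-fold (Rela) to 10.9-fold (Relb). Of these, Relb passed the count filter through its Trpm7 cKO libraries. The non-canonical precursor Nfkb2 fell to 0.433 of its control level, while Nfkb1 and the kinase Ikbkb did not pass. When a log2 fold change beyond 1.5 was asked for as well, as the study did, 5 members were higher (8.42% of all tested genes), and Nfkb2, at -1.21, was not among the 3.53% of all tested genes that were lower. The median log2 fold change of the 9 was 1.53, beside -0.01 over all tested genes. The libraries of the 2 genotypes did not overlap for 6 of the 9 (Nfkb2, Relb, Nfkbia, Nfkbiz, Tnfaip3 and Birc3), beside 34.4% of all tested genes.

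**Figure D1:**
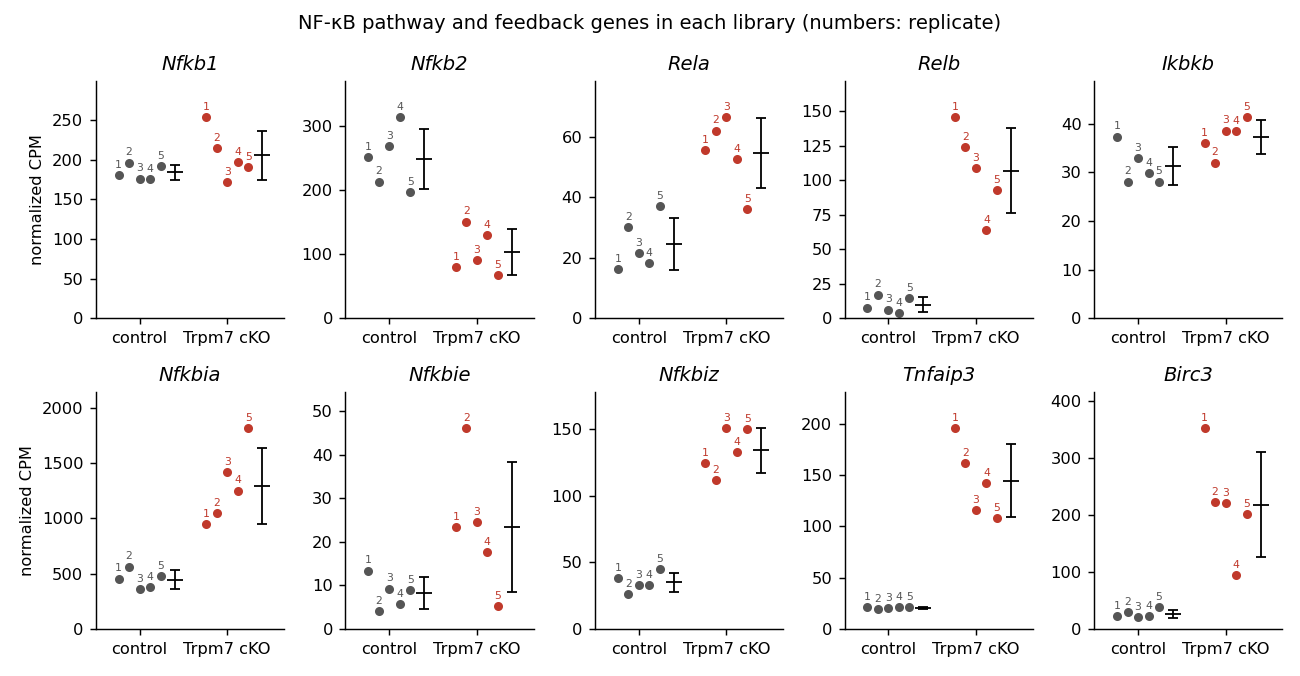
Normalized CPM (linear axis from 0) of each of the 10 genes in every library, with the replicate number beside each point and the mean and SD (n = 5) to the right of each group. Relb, Nfkbia, Nfkbiz, Tnfaip3 and Birc3 show every Trpm7 cKO point above every control point, Nfkb2 shows the opposite, and Nfkb1, Rela, Nfkbie and Ikbkb overlap.

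Among the subunits, Relb (chr7:19606217-19629438, minus strand, GRCm38), the partner of p52 in the non-canonical dimer, had the lowest level of the tested members in control. Its level was 7.66, 17.0, 6.18, 3.85 and 14.6 CPM in control replicates 1 to 5, which rests on only 4 to 17 counts per library. In Trpm7 cKO replicates 1 to 5 it was 146, 124, 109, 64.0 and 92.9 CPM, from 18 to 81 counts. Every Trpm7 cKO library therefore lay well above the highest control. The increase was 3.45 ± 0.31 on the log2 scale (SE; adjusted p = 5.78e-08). Relb was above the filter's level in 2 control libraries and in all 5 Trpm7 cKO libraries, so it was tested through Trpm7 cKO. Rela (chr19:5637483-5648130, plus strand), the transactivating subunit of the canonical dimer, rose less. It was at 16.3, 30.1, 21.6, 18.3 and 37.0 CPM in control and at 55.8, 62.1, 66.6, 52.8 and 36.1 CPM in Trpm7 cKO replicates 1 to 5. Control replicate 5 and Trpm7 cKO replicate 5 met, so the groups overlapped by these 2 libraries, and the log2 fold change was 1.19 ± 0.24 (SE; adjusted p = 0.000391).

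Nfkb2 (chr19:46304320-46312385, plus strand), whose product is processed to p52, went the other way. Control replicates 1 to 5 had 252, 213.5, 269, 314 and 196 CPM, and Trpm7 cKO replicates 1 to 5 had 79.2, 151, 91.1, 129.6 and 67.1 CPM. All Trpm7 cKO libraries were below the lowest control. The log2 fold change was -1.21 ± 0.20 (SE; adjusted p = 3.88e-05), a level 2.31-fold lower. The 3′ end of Nfkb2 overlaps Psd on the opposite strand, with 59.8% of its last 500 transcript bases shared, and whether counting used strand is not given in the sources used here. Psd had at most 1 count in any library. Nfkb1 (chr3:135584655-135691547, minus strand), the precursor of p50, did not pass the test. It was at 181, 196, 176, 175 and 192 CPM in control and at 254, 215, 172, 197 and 191 CPM in Trpm7 cKO replicates 1 to 5, with Trpm7 cKO replicate 1 the highest and replicate 3 the lowest of all 10. The difference was 0.17 ± 0.14 (log2, SE; adjusted p = 0.32).

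The inhibitors of the IκB family divide into those that hold NF-κB in the cytoplasm (Nfkbia for IκBα, Nfkbie for IκBε) and the nuclear cofactor IκBζ (Nfkbiz). Nfkbia (chr12:55489410-55492647, minus strand) had the highest level of the 10 genes in both genotypes. Its control replicates 1 to 5 stood at 455.5, 563, 356.5, 378.5 and 479 CPM, and its Trpm7 cKO replicates at 947, 1044, 1416, 1251 and 1817 CPM. The lowest Trpm7 cKO library was well above the highest control. The increase was 2.88-fold, or 1.53 ± 0.18 on the log2 scale (SE; adjusted p = 9.09e-07), just past the study's size threshold of 1.5. In raw counts, before scaling, Nfkbia was at 346 to 562 in control and 352 to 782 in Trpm7 cKO, so its higher level rests on the smaller Trpm7 cKO totals as well as on its counts. Part of its 3′ end (7.0% of the final 500 bases of the transcript) is also found in B230398E01Rik, Lrrc2 and Nup98.

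Nfkbiz (chr16:55811375-55838899, minus strand), needed for a secondary set of targets such as Il6, showed the tightest Trpm7 cKO group among the members that rose. It was at 38.3, 26.1, 33.0, 32.7 and 44.9 CPM in control and at 124, 112, 151, 133 and 149.7 CPM in Trpm7 cKO replicates 1 to 5. The groups were far apart, and the coefficient of variation in Trpm7 cKO was 12.5%. The increase was 3.76-fold (log2 1.91 ± 0.18, SE; adjusted p = 5.36e-08). Nfkbie (chr17:45555703-45563169, plus strand) was the 1 member that the count filter removed. Control replicates 1 to 5 had 13.4, 4.01, 9.27, 5.78 and 8.98 CPM and Trpm7 cKO replicates 1 to 5 had 23.4, 46.15, 24.5, 17.6 and 5.16 CPM, from 4 to 14 and from 1 to 26 counts. Trpm7 cKO replicate 5, with its single count, lay among the controls, and the other 4 Trpm7 cKO libraries lay above them all. With no filter on low counts its log2 fold change was 1.41 (adjusted p = 0.000527), and with a filter on the mean over all libraries, blind to genotype, it was 1.57 (adjusted p = 0.00246).

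Ikbkb (chr8:22659212-22706589, minus strand), the catalytic IKKβ subunit that phosphorylates IκBα, did not pass the test. Control replicates 1 to 5 had 37.3, 28.1, 33.0, 29.85 and 28.1 CPM, and Trpm7 cKO replicates 1 to 5 had 36.0, 31.95, 38.6, 38.4 and 41.3 CPM. The groups overlapped, from 25 to 39 counts in control and 8 to 24 in Trpm7 cKO, with a difference of 0.23 ± 0.20 (log2, SE; adjusted p = 0.381). Its partner kinase gene Chuk (IKKα) was at 69.4 ± 5.81 and 72.5 ± 9.64 CPM (SD, n = 5 each; log2 fold change 0.08 ± 0.16, SE, adjusted p = 0.722).

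Tnfaip3 and Birc3 code for enzymes of the ubiquitin system at the receptor complexes. The Tnfaip3 product is a ubiquitin-editing enzyme that dampens signalling from tumour necrosis factor and Toll-like receptors. Tnfaip3 (chr10:19000910-19015657, minus strand) was the most even member in control, at 21.05, 19.0, 20.6, 21.2 and 21.3 CPM. In Trpm7 cKO replicates 1 to 5 it stood at 196, 161.5, 116, 142 and 108 CPM. Even the lowest of these was several times every control, the increase was 7.17-fold (log2 2.84 ± 0.19, SE), and its adjusted p of 1.22e-09 was the smallest among the members. Birc3 (chr9:7848699-7873186, minus strand), a ubiquitin ligase that joins the tumour necrosis factor receptor complex and helps to degrade NIK, varied most between Trpm7 cKO libraries of the tested members. It was at 23.0, 29.1, 20.6, 22.15 and 38.2 CPM in control and at 353, 222, 221, 94.4 and 201 CPM in Trpm7 cKO replicates 1 to 5. Trpm7 cKO replicate 4 was lowest and replicate 1 highest, all above every control, and the increase was 8.22-fold (log2 3.04 ± 0.30, SE; adjusted p = 8.74e-07). Part of its 3′ end (8.8% of the final 500 bases) is found in 317 more genes, its paralog Birc2 not among them.

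**Figure D2:**
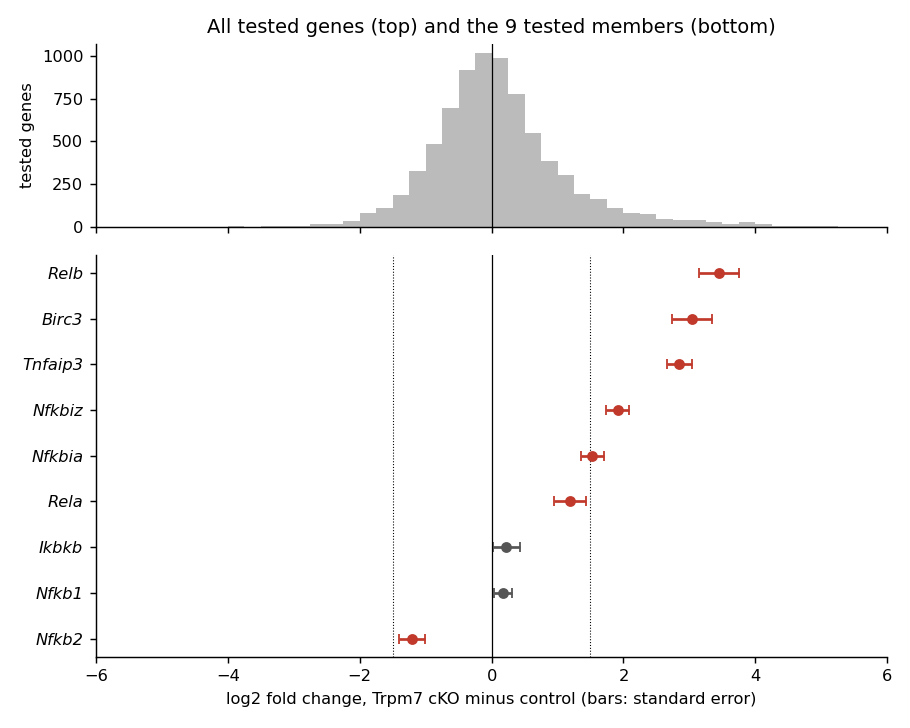
Top, the number of tested genes (7753) by log2 fold change, Trpm7 cKO minus control. Bottom, the 9 tested members with their SE on the same axis, red where the adjusted p was below 0.05 and grey where not, with dotted lines at 1.5 in either direction. The genes sit mostly around 0, while Relb (3.45), Birc3 (3.04) and Tnfaip3 (2.84) lie in the right tail and Nfkb2 (-1.21) on the left. Nfkb1 and Ikbkb, near 0 here, were lower in Trpm7 cKO when libraries were not scaled.

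The order of the levels changed with the genotype. In control, Nfkbia was highest, Nfkb2 and Nfkb1 followed with overlapping libraries, then Nfkbiz, Ikbkb, Birc3, Rela and Tnfaip3, each overlapping the next, and Relb and Nfkbie were lowest and overlapped. In Trpm7 cKO, Nfkbia was again alone at the top. Birc3, Nfkb1, Tnfaip3, Nfkbiz, Relb and Nfkb2 followed, each overlapping its neighbour, and Rela, Ikbkb and Nfkbie formed an overlapping lowest set. Birc3 thus stood at 218 ± 91.9 CPM, beside Nfkb1 at 206 ± 31.02 CPM (SD, n = 5), where in control it had been at 26.6 ± 7.22 CPM beside 184 ± 9.545 CPM. Relb (107 ± 31.05 CPM) and Nfkb2 (104 ± 35.3 CPM) were level in Trpm7 cKO and apart in control (9.86 ± 5.665 and 248.9 ± 46.5 CPM). As a share of all member counts, Nfkb2 took 18.5% to 31.3% in control libraries and 2.48% to 6.96% in Trpm7 cKO libraries. The share of Birc3 was 2.18% to 3.60% in control and 4.45% to 15.9% in Trpm7 cKO.

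Ratios of raw counts within a library need no scaling between libraries, and are described here without a test. Relb per Nfkb2 was 0.0123 to 0.0798 in control and 0.494 to 1.84 in Trpm7 cKO, and Relb per Rela was 0.211 to 0.567 and 1.21 to 2.61. Nfkb1 per Nfkb2, the precursors of p50 and p52, was 0.558 to 0.977 and 1.42 to 3.20. These 3 ratios did not overlap between the genotypes, whereas Rela per Nfkb1 did (0.0899 to 0.193 and 0.189 to 0.388). Relb and Nfkb2 were already apart in CPM, in opposite directions, so the ratio between them could not overlap. Relb per Rela and Nfkb1 per Nfkb2 each reuse a gene of that pair, so the 3 are not separate results. Nfkbia per Nfkb1 was 2.02 to 2.87 in control and 3.73 to 9.51 in Trpm7 cKO. The summed inhibitor and feedback genes (Nfkbia, Nfkbie, Nfkbiz, Tnfaip3 and Birc3) per summed subunit genes were 0.9 to 1.40 and 2.87 to 5.89. Tnfaip3 per Nfkbia came close to touching, at 0.0338 to 0.0578 and 0.0597 to 0.207. Birc3 per Birc2, 2 paralogs that rose together, was 1.26 to 2.30 in control and 1.16 to 2.13 in Trpm7 cKO, and Ikbkb per Chuk was 0.378 to 0.565 and 0.429 to 0.688, both overlapping.

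Within the Trpm7 cKO group the members did not share 1 order of libraries. Replicate 1 was highest for Nfkb1, Relb, Tnfaip3 and Birc3, replicate 5 for Nfkbia and Ikbkb, replicate 3 for Rela and Nfkbiz, and replicate 2 for Nfkb2 and Nfkbie. By the root mean square distance of centred log2 CPM over all 10 libraries, the closest pairs were Nfkb1 with Ikbkb (0.235), Nfkbia with Nfkbiz (0.348) and Relb with Birc3 (0.372), and the farthest was Nfkb2 with Relb (2.35). Of all tested genes outside the list, those closest to the members' mean profile were Foxo1 (0.130), S100a16 (0.140), Atp6v0d1 (0.144), Fgfr1 (0.152) and Ythdc1 (0.163), over the same 10 libraries. Their log2 fold changes were 1.22 (S100a16) to 1.63 (Atp6v0d1).

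Beside the leukocyte sums, the members took different orders among the Trpm7 cKO libraries. Trpm7 cKO replicate 2 had the lowest leukocyte sum, 1546 CPM, and held Birc3 at 222, Tnfaip3 at 161.5 and Relb at 124 CPM. In that library Nfkbiz (112 CPM) and Ikbkb (31.95 CPM) were at the lowest of the group, and Nfkb2 (151 CPM) and Nfkbie (46.15 CPM) at the highest. Replicate 4 had the highest sum, 6873 CPM, and the lowest Birc3 (94.4 CPM) and Relb (64.0 CPM) of its group. For Nfkbia, the 3 libraries with 947, 1044 and 1416 CPM were those with the 3 lowest leukocyte sums, and the 2 with 1251 and 1817 CPM had the 2 highest. The fibroadipogenic sums of Trpm7 cKO replicates 1 to 5 were 5093, 3641, 2531, 3314 and 3634 CPM. They were highest in replicate 1 and next in replicate 2, with replicate 5 close behind. Relb, Tnfaip3 and Birc3 were also highest in replicate 1 and next in replicate 2. The MuSC marker sums were 3944, 3673, 3452, 2380 and 3495 CPM, again highest in replicates 1 and 2, and lowest in replicate 4. The endothelial sums were 149.4, 129.6, 231.3, 398.3 and 650.4 CPM, lowest in replicates 1 and 2. With 5 libraries no relation within the group can be tested, for any of these cell types. In a fit with the mean log2 level of the tested leukocyte markers as a covariate, Relb, Tnfaip3 and Birc3 stayed higher (3 of 9 members), and Nfkb2 (log2 -0.32, adjusted p = 0.777), Rela (1.19, adjusted p = 0.309), Nfkbia (0.64, adjusted p = 0.436) and Nfkbiz (1.502, adjusted p = 0.0561) no longer passed. Of the 22 tested markers behind that covariate, 20 did not overlap between the genotypes, so genotype and marker level are hard to separate in this fit.

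**Figure D3:**
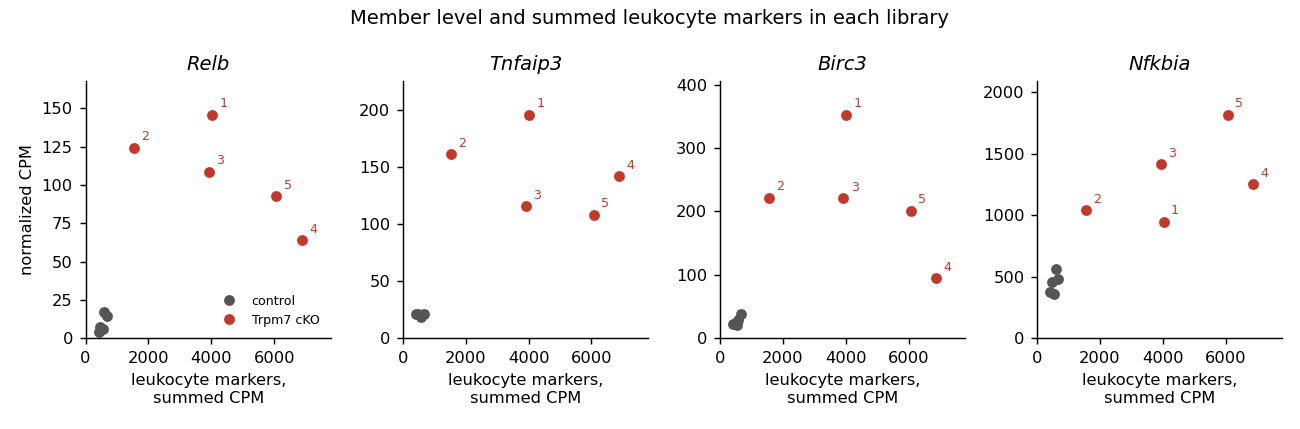
Normalized CPM of Relb, Tnfaip3, Birc3 and Nfkbia (y axis) against the summed normalized CPM of the leukocyte markers (x axis) in each of the 10 libraries, control in grey and Trpm7 cKO in red with replicate numbers. The controls cluster at 417 to 678 CPM of markers. Among Trpm7 cKO libraries replicate 2 has the lowest marker sum (1546 CPM) and replicate 4 the highest (6873 CPM). A relation within the group was not tested.

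A second limit is the scaling. The Trpm7 cKO libraries were made from the same number of sorted cells but held fewer counts, and with counts taken per 3000 sorted cells, with no scaling, the median log2 fold change of all tested genes moved to -1.15. Relb, Tnfaip3 and Birc3 were then still called higher and Nfkb2 lower. Rela (0.06, adjusted p = 0.894), Nfkbia (0.27, adjusted p = 0.509) and Nfkbiz (0.74, adjusted p = 0.0716) were no longer called, and Nfkb1 (-0.95, adjusted p = 0.0198) and Ikbkb (-0.93, adjusted p = 0.0259) turned to lower. Relative to that median, all of the members but Nfkb2 were above the typical gene. With library totals, RLE factors or the MuSC markers as the scale, the calls of all 9 members were the same.

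**Figure D4:**
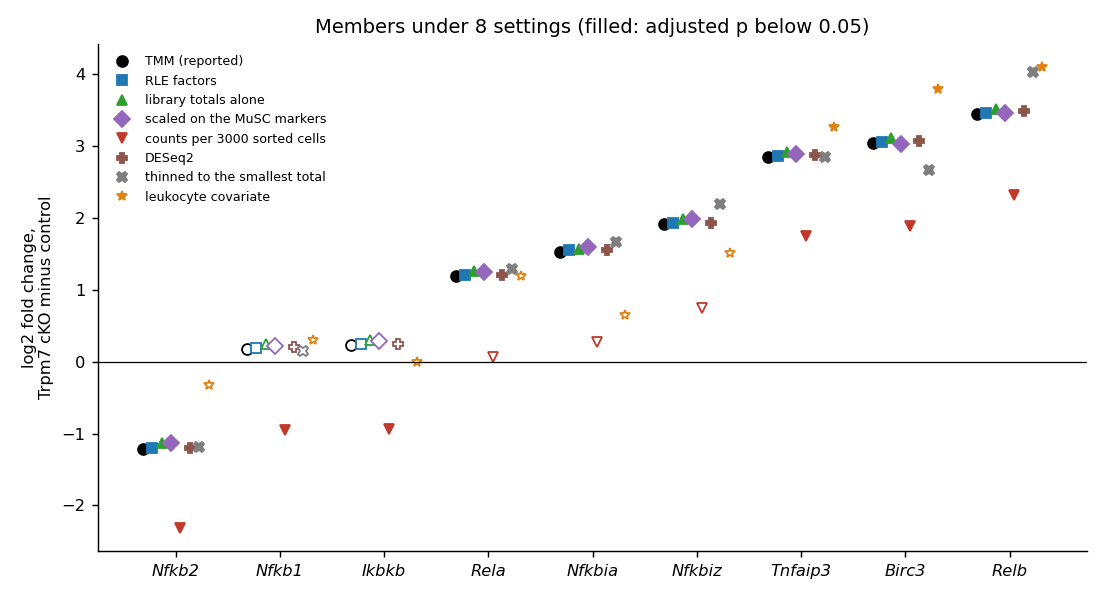
Log2 fold change (Trpm7 cKO minus control) of the 9 tested members under 8 settings, filled where the adjusted p was below 0.05. Relb, Birc3 and Tnfaip3 stay filled and above 0 in each setting shown, Nfkb2 stays below 0, and Nfkb1 and Ikbkb change sign with counts per 3000 sorted cells. Ikbkb has no point after thinning, where it was not tested.

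The other genes of the pathway were followed with a list of 84 ligands, receptors, adaptors, kinases, inhibitors and targets, of which 82 were in the table and 49 were tested. Of the 49, 30 rose, 3 fell and 16 did not pass, and 19 rose past both thresholds, beside 24.5% higher, 24.2% lower and 8.42% higher past both among all tested genes. Of the 49, 14 were above the filter's level in fewer than 5 control libraries and 6 in fewer than 5 Trpm7 cKO libraries. Among them, 5 reached it in 0 control libraries (the 3 tested ligands, Traf2 and Icosl), so their rise follows from the filter. The median log2 fold change of the 49 was 1.08, beside -0.01 over all tested genes. The genes that fell were Il1rap, Sod2 and Marcksl1. The list was drawn up with results of these libraries known, so its count is a description.

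Of 8 ligands in the table, 3 were tested. They reached the filter's level in 0 of 5 control and in all 5 Trpm7 cKO libraries, so that they came out higher follows from the filter, and their values are a description. Il1b, coding for interleukin-1β, had 2 to 8 counts in control and 10 to 72 in Trpm7 cKO libraries (4.45 ± 2.30 and 84.1 ± 56.6 CPM; log2 fold change 4.05 ± 0.59, SE, adjusted p = 0.000106). Tnf was at 0 to 5 counts in control and 7 to 15 in Trpm7 cKO (1.59 ± 2.07 and 26.9 ± 11.3 CPM; 3.78 ± 0.52, adjusted p = 5.61e-06). Tnfsf12, coding for TWEAK, which is known to act on MuSCs and muscle, rose from 8.86 ± 3.85 to 49.5 ± 14.5 CPM (2.42 ± 0.29, adjusted p = 1.37e-06). Il1b and Tnf are transcripts that myeloid cells make in abundance, and both were scarce in control. Which cells they came from in these libraries was not tested.

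Of 6 tested receptors, 3 rose and 1 fell, beside 24.5% and 24.2% of all tested genes. Tnfrsf1a, the main receptor for tumour necrosis factor, rose from 19.1 ± 5.12 to 48.4 ± 6.64 CPM (log2 1.37 ± 0.23, SE; adjusted p = 4.93e-05) without overlap. Ltbr, the lymphotoxin β receptor of the non-canonical pathway, rose from 43.8 ± 12.9 to 69.4 ± 13.3 CPM (0.67 ± 0.22; adjusted p = 0.0154), with overlap. The TWEAK receptor gene Tnfrsf12a had the highest level of the group and did not pass, at 110.2 ± 13.2 and 153 ± 83.0 CPM (0.35 ± 0.30; adjusted p = 0.346), with Trpm7 cKO libraries from 61.2 to 253 CPM. Il1rap, the accessory chain of the interleukin-1 receptor, fell from 23.7 ± 3.45 to 7.70 ± 5.81 CPM (-1.39 ± 0.35; adjusted p = 0.00229), with 20 to 28 counts in control and 0 to 9 in Trpm7 cKO. The signalling chain of that receptor, Il1r1, was at 38.7 ± 3.74 and 22.7 ± 11.3 CPM and missed the threshold (-0.58; adjusted p = 0.0612).

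Among adaptors and upstream kinases, 6 of 12 rose (24.5% of all tested genes did) and the other 6 did not pass. Traf5 rose from 21.9 ± 5.87 to 74.7 ± 23.3 CPM (log2 1.77 ± 0.24, SE; adjusted p = 4.31e-06), and the others were Myd88, Traf2, Map3k14, Ripk1 and Irak1, from 0.48 (Irak1) to 1.56 (Traf2). Traf2 reached the filter's level in 0 of 5 control and in all 5 Trpm7 cKO libraries, so its rise follows from the filter. Map3k14 codes for NIK, the kinase of the non-canonical pathway. It was above the filter's level in 1 control library and in 4 Trpm7 cKO libraries, so it too was tested mostly through Trpm7 cKO. The genes of highest level in this role did not pass: Bcl10 (-0.27, adjusted p = 0.136), Tab2 (0.05, adjusted p = 0.792) and Map3k7, which codes for the kinase TAK1 (-0.43, adjusted p = 0.0654). Of the other kinase and subunit genes, Rel, coding for the subunit c-Rel that is best known from lymphocytes, rose from 24.1 ± 1.91 to 58.6 ± 30.8 CPM (1.14 ± 0.31, adjusted p = 0.0049), with overlap. In Trpm7 cKO replicate 2 it was at 16.0 CPM, below the lowest control library (22.0 CPM). Chuk and Tbk1 did not pass.

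Other IκB and feedback genes rose in 7 of 10 cases (24.5% of all tested genes), with a median log2 fold change of 1.48. Of the 10, 3 were above the filter's level in fewer than 5 control libraries (Tnip1 in 1, Bcl3 in 3 and Birc2 in 3). These were above it in all 5 Trpm7 cKO libraries and so owe their place among the tested genes to that group. Birc2, the paralog of Birc3, rose from 16.6 ± 6.64 to 141 ± 38.7 CPM (3.07 ± 0.26, SE; adjusted p = 1.99e-08). Zfp36, whose product destabilises cytokine mRNAs, rose from 329 ± 90.3 to 1201 ± 249.3 CPM (1.87 ± 0.19; adjusted p = 1.37e-07). The deubiquitinase gene Cyld rose from 121 ± 15.6 to 199.8 ± 68.0 CPM (0.74 ± 0.20; adjusted p = 0.00404), with overlap. Tnip1, a partner of the Tnfaip3 product, Tank, the nuclear cofactor gene Bcl3 and the ribonuclease gene Zc3h12a also rose, and Nfkbib (IκBβ), Otulin and Traf1 did not pass. Rbck1, the only tested gene of the linear ubiquitin ligase, did not pass (0.42 ± 0.25; adjusted p = 0.178).

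Of 14 other tested targets, 10 rose and 2 fell (24.5% and 24.2% of all tested genes), with a median log2 fold change of 1.88. The chemokine gene Cxcl1 rose from 204 ± 27.7 to 631 ± 149 CPM (1.63 ± 0.17, SE; adjusted p = 2.9e-07) and the macrophage growth factor gene Csf1 from 293 ± 42.8 to 563 ± 169.5 CPM (0.96 ± 0.18; adjusted p = 0.000189). Icosl, a co-stimulatory ligand gene, had at most 1 count in any control library and 8 to 38 in Trpm7 cKO, which against a floor of 3 counts per library is at least 18.1-fold higher. It reached the filter's level in 0 of 5 control and in all 5 Trpm7 cKO libraries, so its rise follows from the filter. Vcam1, the gene of highest level in this role and the marker by which MuSCs are often sorted, did not pass (427 ± 44.5 and 489 ± 119.5 CPM; 0.21 ± 0.16, adjusted p = 0.301). The mitochondrial superoxide dismutase gene Sod2, often used as an NF-κB target, fell from 205 ± 28.7 to 107 ± 23.1 CPM (-0.90, adjusted p = 0.000137), and Marcksl1 fell from 458 ± 35.2 to 292 ± 45.5 CPM (-0.66, adjusted p = 0.000526), both without overlap. The further genes that rose were Gadd45b, Cxcl2, Ccl2, Il6, Ier3, Cxcl10 and Cflar. Of these, Il6 was above the filter's level in 1 control library, Cxcl10 in 2 and Gadd45b in 4. Each was above it in all 5 Trpm7 cKO libraries and so was tested through that group.

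**Figure D5:**
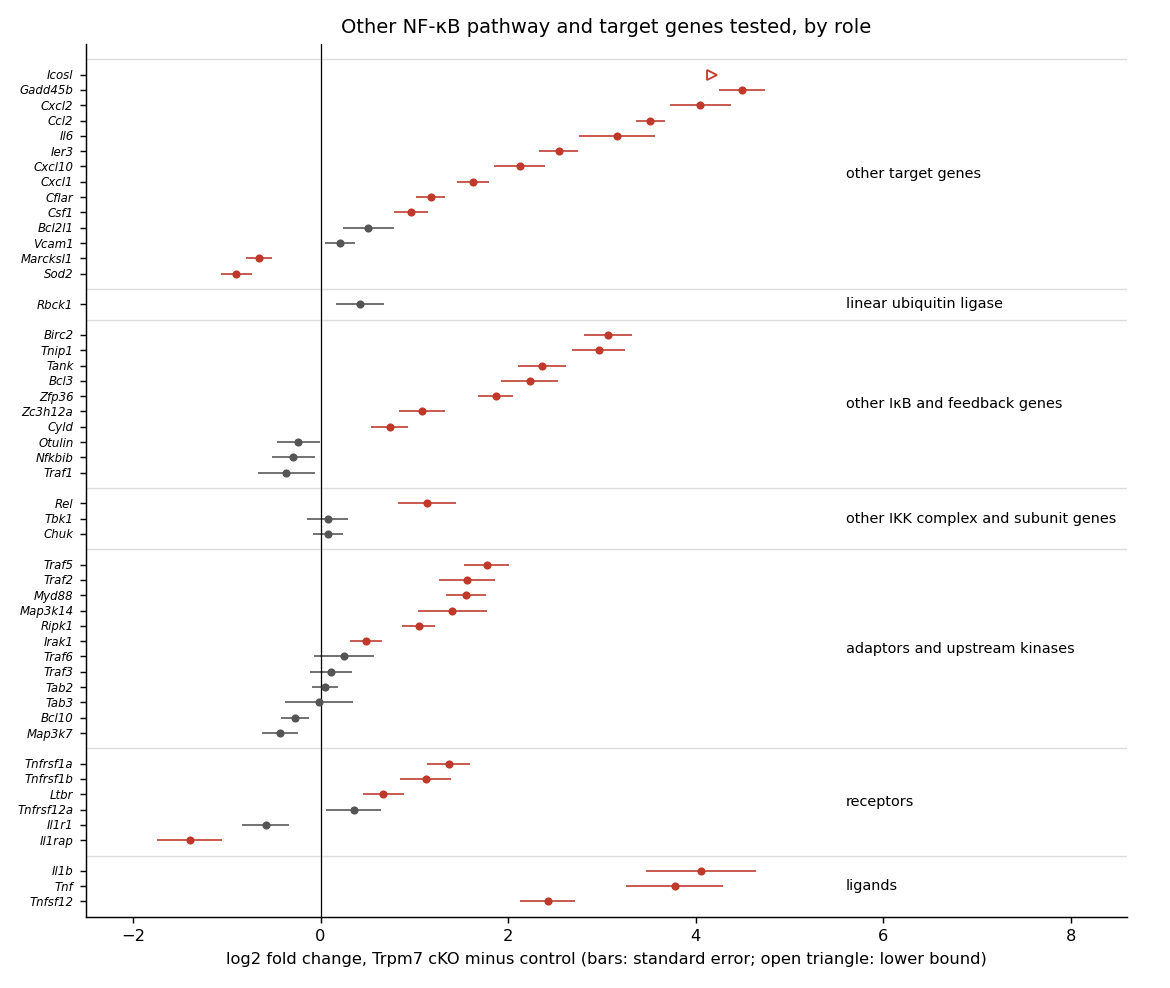
Log2 fold change (Trpm7 cKO minus control, bars are the SE) of the 49 tested pathway and target genes, grouped by role, red where the adjusted p was below 0.05 and grey where not, with the open triangle giving the lower bound for Icosl. The 3 ligands, Traf2 and Icosl, tested only through their Trpm7 cKO libraries, lie right of 0. Most feedback and target genes do too, and Il1rap, Sod2 and Marcksl1 are the red points left of 0.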

How the data were processed

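Activated MuSCs of 5 control and 5 Trpm7 cKO samples were profiled by CEL-Seq2. The authors deposited a table of raw counts per gene: per the study's methods, molecular identifiers were handled with UMI-tools 1.1.4, reads trimmed with Trim Galore 0.6.10, mapped to GRCm38 with HISAT2 2.2.1 and counted with featureCounts 2.0.6. Duplicates were collapsed, so counts are close to molecules. The annotation release and strand setting are not given in the sources used here. Of 24620 entries, 12 repeat a symbol, and the entry with the larger total was used.

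Groups follow the labels. Testing used edgeR 4.0.16 (R 4.3.3): filterByExpr (minimum count 10, minimum total count 15), TMM, a robust quasi-likelihood fit on all 10 libraries with genotype as the only term, and Benjamini-Hochberg adjustment over 7753 genes. CPM were computed with TMM-scaled totals. The script was tested on simulated data. Summed marker levels were compared by an exact permutation test over 252 arrangements. No libraries agreed within sampling noise (chi-square per degree of freedom of 1.4 or more for each pair of a group). Nothing in the labels says that libraries came from separate animals, and Trpm7 cKO 4 and 5 share a number in their library names, so p-values measure the spread between these libraries.

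The members and all lists (pathway, leukocyte, MuSC, endothelial, fibroadipogenic) were chosen with earlier results of these data known. Named in the text are all members, in each pathway role the 3 tested genes of highest mean level and the largest passing change, and the 5 genes of most similar profile; further genes named beside a count were named after their values were seen. Gene positions are from GENCODE release 21 of the mouse annotation (GRCm38). Promoters were from RefSeq, and the last 500 transcript bases were searched for shared runs of 31 bases. Alternatives were other scalings, filters and tools (DESeq2 1.42.0, limma 3.58.1), the replicate block, a leukocyte covariate, thinning, and libraries left out.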

Additional observations from a re-analysis of the deposited data

How the results depend on the processing

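Over the alternatives run, 195 member values kept direction and call, 7 lost their call and 4 changed sign. Relb, Tnfaip3 and Birc3 kept their calls in every one. With no scaling (counts per 3000 sorted cells) the calls over all genes were 380 higher and 5162 lower, 3 members were higher and 3 lower, 14 pathway genes were higher and 16 lower, and Nfkb1 (log2 -0.95) and Ikbkb (-0.93) reversed. Higher calls made up 6.86% of all calls there, beside 50.3% in the reported fit, 56.7% with library totals and 57.5% scaled on MuSC markers. With the leukocyte covariate the counts were 353 higher and 115 lower (75.4% higher), 3 members higher and 0 lower, 13 pathway genes higher and 0 lower, and Ikbkb came to -0.001. At an unadjusted p below 0.05, 0 members and 3 pathway genes were lower in that fit (edgeR). Without a filter on low counts 2882 genes were higher and 7 pathway genes lower, the median of all genes was 0.17, and Nfkb1 came to -0.025. Thinned to the smallest total, where 3923 genes were tested, 922 genes were higher and 848 lower, and 15 pathway genes higher. Asking for a log2 fold change beyond 1.5 as well left 653 genes higher and 274 lower, 0 members lower, and 19 pathway genes higher and 0 lower. Apart from the fewer genes tested after thinning and the second threshold, the cause was not tested. The replicate numbers did not pair the samples (correlations of deviations -0.118 to 0.181), and with the replicate block 6 members were higher and 1 lower, 30 pathway genes higher and 4 lower, and 1805 and 1762 genes called.

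Leaving out each library in turn kept the 6 members higher and 1 lower (7 higher are counted only because Nfkbie, admitted by its Trpm7 cKO libraries once the filter asked for 4, joined them); 30 to 34 pathway genes were higher and 3 to 6 lower (6 without Trpm7 cKO replicate 1, 5 without Trpm7 cKO replicate 4). Summing Trpm7 cKO replicates 4 and 5, or leaving out replicates 3 and 5 together, a choice made after the data were seen, ended no member's call.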

Other observations

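Of the 82 pathway and target genes in the table, 33 had too few counts to be tested, and some are given here by their counts, chosen after their values were seen. Nfkbid, which codes for a further nuclear IκB protein, had 0 to 2 counts in control libraries and 4 to 22 in the smaller Trpm7 cKO libraries. Tnip3 and Irak3, both known as brakes on Toll-like receptor signalling, had 0 to 1 and 0 to 2 counts in control, and 2 to 9 and 1 to 9 in Trpm7 cKO. Ptgs2, the inducible cyclooxygenase gene, had 0 to 3 counts in control and 3 to 37 in Trpm7 cKO. These 4 were among 7 of the 33 whose CPM did not overlap between the genotypes. The 34.4% of all tested genes is no like measure, since those genes had more counts. A share over all untested genes was not computed. Ikbkg, coding for the regulatory subunit NEMO of the IκB kinase, was at 9 to 23 counts in control and 0 to 6 in Trpm7 cKO, or 16.8 ± 4.27 and 7.21 ± 4.20 CPM (SD, n = 5 each). In the untested classical ligand genes Lta and Ltb, no control library had a count and no Trpm7 cKO library had more than 1, so a difference was not detectable at this depth.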
